A study of Mus musculus with 20 samples.

Results

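The genes described here carry glucose through glycolysis, turn pyruvate into lactate and back, and build glucose anew in the kidney. The list held 37 genes named for these routes, and all 37 had a row among the 24411 gene symbols of the count table. Of these, 36 had counts high enough to be tested, and *Eno1* did not. RNA was sequenced from the kidneys of 20 inbred C57BL/6 mice taken at P125 (postnatal day), with 1 library per mouse and 5 mice in each of 4 groups of sex and genotype. Every mouse carried homozygous floxed *Pkd2* alleles and received doxycycline (DOX) at 50 mg per kg from P27 to P29. Mutants carried both Pax8rtTA and TetOCre, so that DOX switched on Cre recombinase and deleted *Pkd2* along the whole renal tubule, where the *Pax8* promoter is active. Controls were littermates labelled Control, which in the study's methods lacked Pax8rtTA or TetOCre. The 3 litters (A, B and C) were spread unevenly over the groups, with 3, 1 and 1 male controls, 2, 2 and 1 male mutants, and 1, 3 and 1 of both female groups.

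In the names of single mice the first letter gives the sex and the second the genotype (C for control, M for mutant), and the number that follows is only a name. Total counts per library ran from 11307741 to 19324073. The FM4 library stood apart, with 14850 genes detected against 16776 to 17724 in the other 19 libraries and 76 genes at exactly 1 count against 708 to 859. *Pkd2* itself measured 250.4 to 332 CPM (counts scaled to the size of each library) in male controls and 109.7 to 133 in male mutants, and 193 to 306 in female controls and 94.8 to 182 in female mutants, with no overlap in either sex. The kidney weight as a percentage of body weight (KBW) had a median of 0.649 in male controls, 1.71 in male mutants, 0.605 in female controls and 1.24 in female mutants. Markers of the proximal tubule, the segment that makes glucose, summed to 21054 to 22083 CPM in male controls and 15430.1 to 17291 in female controls.

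Glycolysis breaks glucose down to pyruvate in the cytosol, and pyruvate either enters the mitochondrion or is reduced to lactate, which leaves the cell through monocarboxylate transporters. Gluconeogenesis runs the other way through a few enzymes of its own, and the kidney shares this task with the liver, chiefly in the proximal tubule, while the distal segments rely more on glycolysis. Pyruvate dehydrogenase kinases block the turning of pyruvate into acetyl-CoA within the mitochondrion, and hypoxia-inducible factor is a textbook activator of glycolytic genes. In polycystic kidney disease, glucose use by the cystic epithelium has been a recurring subject.

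The first question was which genes of these routes the control kidney used. Levels are compared between genes as CPM per kilobase of exon (CPM per kb). In male controls the highest were *Ldhb*, a lactate dehydrogenase subunit, at 1079 ± 90.6 (SD, n = 5), *Gapdh* at 932 ± 79.0, *Fbp1*, the fructose bisphosphatase of liver and kidney, at 722 ± 28.3 and *Pck1*, the cytosolic phosphoenolpyruvate carboxykinase, at 709 ± 140.3. The means of *Fbp1* and *Pck1* lay within 1 SD of each other, so their order is not set. In female controls *Pck1* came first at 1188 ± 305, followed by *Ldhb* at 1066 ± 191, which lay within its SD. Of the 37 genes, 14 exceeded 100 CPM per kb in male controls and 4 of the tested genes stayed under 1, namely *Eno2*, *Slc16a3*, *Hk2* and *Hk3*.

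At several steps a single gene made up nearly all of its family's RNA. *Hk1* made up 99.0% of the summed level per kb of *Hk1*, *Hk2* and *Hk3* in male controls and 98.7% in female controls. *Pck1* made up 99.3% and 99.5% of its pair with *Pck2*, the mitochondrial form, and *Fbp1* 98.6% and 96.8% of its pair with *Fbp2*, the form known from muscle. *Slc16a1*, the transporter MCT1, held 98.4% and 97.6% against *Slc16a3*, the transporter MCT4. The phosphofructokinase subunits were more even, with *Pfkm* at 46.5%, *Pfkl* at 31.6% and *Pfkp* at 21.9% in male controls. *Ldhb* held 74.8% of the *Ldha* and *Ldhb* sum in male controls and 80.1% in female controls. These shares are descriptions from counts and exon lengths, with no test.

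To ask how the loss of *Pkd2* related to these genes, mutants were compared with controls over all 20 mice, with edgeR's quasi-likelihood test, sex and litter as covariates, and Benjamini-Hochberg adjustment over all genes. A gene was called at an adjusted p under 0.01. Of the 36 tested genes, 7 were called, or 19.4%, against 15.4% of all 15355 genes. The lactate exporter *Slc16a3*, the inducible hexokinase *Hk2* and the muscle-type phosphatase *Fbp2* rose, which is 3 of 36 where 9.82% of all genes rose. The kinase *Pdk1*, the phosphofructokinase subunit *Pfkm*, pyruvate carboxylase *Pcx* and *Pck1* fell, which is 4 of 36 where 5.57% of all genes fell. The share called thus lay close to the background, and the median log2 change was -0.098 over the 36 genes and -0.014 over all genes. In males alone 6 were called, against 8.35% of 14706 genes, and these were *Hk2*, *Hk3*, *Slc16a3* and *Fbp2* upward and *Pfkm* and *Pdk1* downward. In females alone edgeR called 0, against 0.612% of 15194 genes, while 13 of the 36, or 36.1%, had an unadjusted p under 0.05 against 20.6% of all genes. DESeq2 called 4 in females, or 11.1% against 6.05% of 15601 genes, which were *Hk2* (DESeq2, adjusted p = 0.00920), *Pck1* (0.00166), *Pdk1* (0.000271) and *Slc16a3* (0.000117). The change had the same sign in both sexes for 28 of the 36 genes, or 77.8%, against 75.3% of all genes. These kidneys were bulk tissue, so fewer cells of a type and less RNA per cell cannot be told apart in any value given here.

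**Figure D1:**
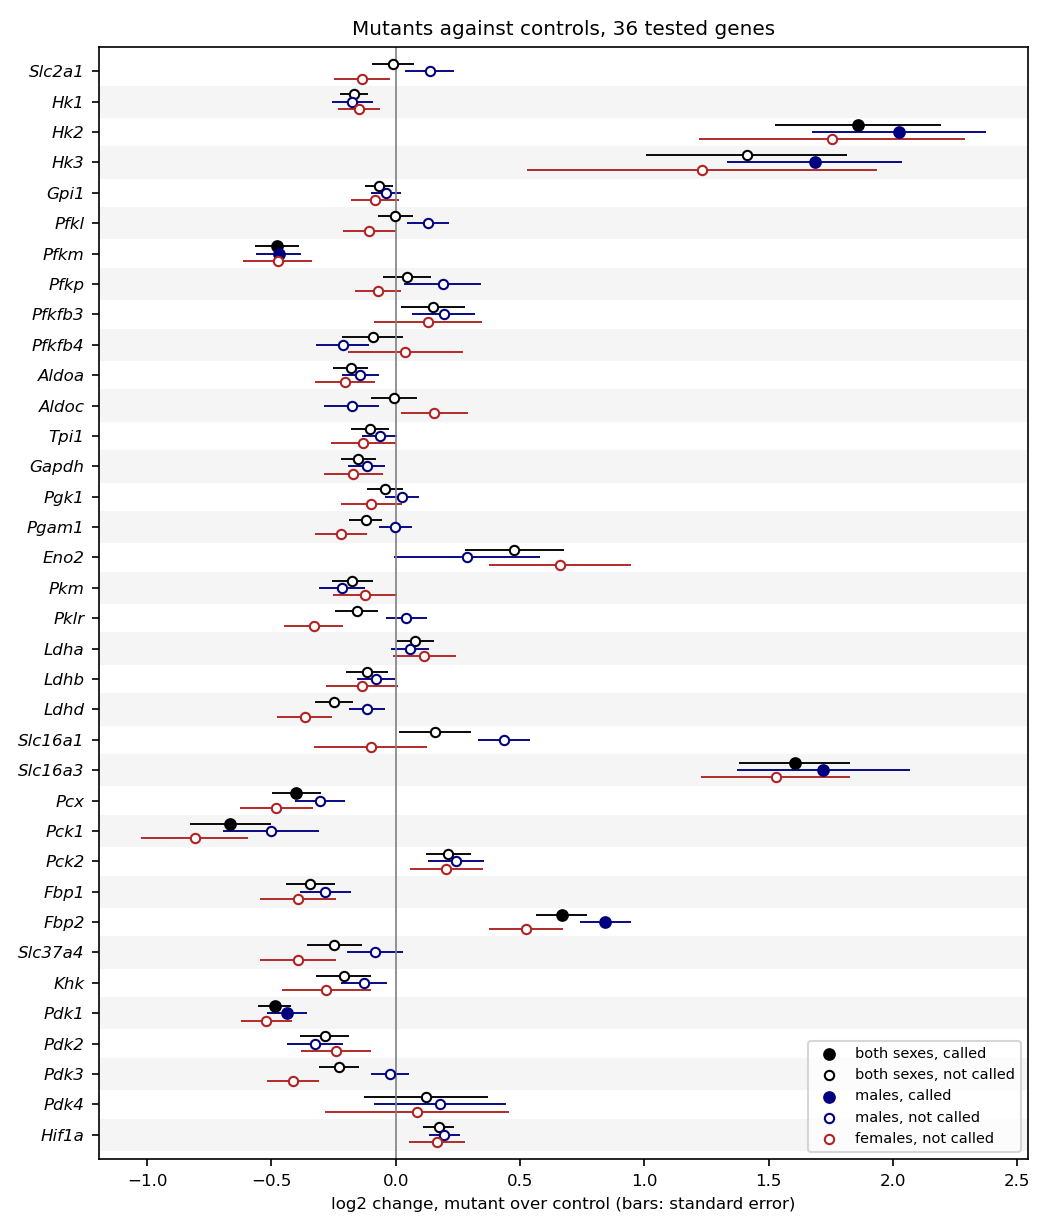
The log2 change of mutant over control is on the x axis and the 36 tested genes are rows, with both sexes in black, males in blue and females in red, bars for the standard error and filled points for calls at an adjusted p under 0.01. Hk2, Hk3 and Slc16a3 sit farthest right, at 1.86, 1.41 and 1.60 in both sexes together, and Pck1 farthest left at -0.67, while most genes lie within 0.5 of 0.

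The start regions of the 3 genes that rose and of *Pck1*, the called gene with the highest level, are shown for 2 textbook motifs of these routes. Each is the 250 bases before the gene's start in RefSeq (GRCm38.p6), 5′ to 3′ along the gene. Capitals mark ACGTG, the core to which hypoxia-inducible factor binds, on either strand, or TTACGTCA, the cyclic AMP response element, in *Pck1*. *Hk2* is at chr6:82774455-82774704 on the minus strand, *Slc16a3* at chr11:120948817-120949066 on the plus strand, *Fbp2* at chr13:62858401-62858650 on the minus strand and *Pck1* at chr2:173152823-173153072 on the plus strand.
Hk2: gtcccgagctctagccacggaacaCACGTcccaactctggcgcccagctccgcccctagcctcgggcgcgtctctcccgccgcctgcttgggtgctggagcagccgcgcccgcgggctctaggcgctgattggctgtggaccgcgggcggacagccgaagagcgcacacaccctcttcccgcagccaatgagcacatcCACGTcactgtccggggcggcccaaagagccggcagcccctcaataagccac
Slc16a3: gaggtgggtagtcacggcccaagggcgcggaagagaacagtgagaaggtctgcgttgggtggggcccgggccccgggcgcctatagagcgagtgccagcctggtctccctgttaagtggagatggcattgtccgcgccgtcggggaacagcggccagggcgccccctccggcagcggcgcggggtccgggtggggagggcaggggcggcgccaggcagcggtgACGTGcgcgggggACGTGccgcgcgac
Fbp2: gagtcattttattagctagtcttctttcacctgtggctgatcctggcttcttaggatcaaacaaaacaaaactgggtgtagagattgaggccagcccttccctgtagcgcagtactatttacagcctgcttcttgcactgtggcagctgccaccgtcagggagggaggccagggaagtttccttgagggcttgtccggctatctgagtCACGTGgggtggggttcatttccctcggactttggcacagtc
Pck1: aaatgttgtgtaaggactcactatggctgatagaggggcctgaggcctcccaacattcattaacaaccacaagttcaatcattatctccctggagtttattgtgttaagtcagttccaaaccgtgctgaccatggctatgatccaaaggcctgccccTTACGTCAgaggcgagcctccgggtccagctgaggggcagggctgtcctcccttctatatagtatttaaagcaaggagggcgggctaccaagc

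The capitals begin 226 and 52 bases before the start in *Hk2*, 27 and 14 in *Slc16a3*, 42 in *Fbp2* and 93 in *Pck1*. These distances hold for the RefSeq starts. In the GENCODE M21 annotation *Slc16a3* begins at chr11:120948480, so its window lies within that gene. GENCODE exons covered 22 bases of the *Fbp2* window, 25 of the *Pck1* window and 0 of those of *Hk2* and *Slc16a3*. In *Fbp2* the match is the longer palindrome CACGTG, which contains ACGTG on both strands. Matched by symbol, the 37 genes had 55 RefSeq starts, and 22 of these windows, or 40.0%, held ACGTG on either strand, against 16.6% of 32851 windows of the same length at all starts. CACGTG was in 18.2% of the windows of these genes and 6.02% of all windows, and TTACGTCA in 1.82% and 0.447%. *Pck1* held no ACGTG in this window. Of the other genes that fell, *Pcx* held 2 ACGTG matches in 1 of its 2 windows, *Pfkm* held 1 in each of 2 of its 4 windows and *Pdk1* held none in its 2 windows, so called genes of both directions held the motif. As GCGTG was not counted, a window without ACGTG can still hold that form of the core. A match describes the letters alone and no binding was measured.

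At the entry step, *Hk2* traps glucose in the cell as its phosphate and is the isoform known from muscle and fat. Its level was 1.17, 0.826, 0.751, 1.14 and 0.450 CPM in male controls 1 to 5 and 5.99, 1.64, 4.19, 4.23 and 2.03 CPM in male mutants 1 to 5. In females it was 1.78, 1.75, 2.71, 0.953 and 1.67 CPM in controls and 7.32, 7.14, 13.3, 1.73 and 1.94 CPM in mutants. Every male mutant lay above every male control, whereas FM4 and FM5 lay within the range of the female controls. *Hk2* rose by 1.86 ± 0.33 (log2 change ± SE) over both sexes (edgeR, adjusted p = 0.000489) and by 2.02 ± 0.35 in males (edgeR, adjusted p = 0.00311), and its change in females was 1.75 ± 0.54 (edgeR, adjusted p = 0.0861). Taken litter by litter (A, B and C in turn), the log2 difference was 1.68, 1.78 and 1.90 in males and 1.96, 1.66 and 0.20 in females, smallest in the single female pair of litter C. The call in males was lost without MC2, MC3 or MC4, with edgeR adjusted p-values of 0.0103, 0.0119 and 0.0183, and with all 20 mice in 1 fit (edgeR, adjusted p = 0.0169). The gene stayed a small part of its family, since its share of the summed level per kb of *Hk1*, *Hk2* and *Hk3* went from 0.529% in male controls to 2.27% in male mutants and from 0.740% to 2.87% in females. *Hk1*, the constitutive hexokinase, had a log2 change of -0.17 ± 0.056 (edgeR, adjusted p = 0.0355).

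*Hk3*, a hexokinase known from myeloid cells, was the lowest of these 3 hexokinases. Male controls had 0.586, 0.508, 0.376, 0.406 and 0.386 CPM and male mutants 2.43, 1.03, 1.18, 1.65 and 0.903 CPM, with no overlap. Female controls had 1.19, 0.873, 1.12, 0.715 and 0.228 CPM and female mutants 2.52, 1.80, 3.75, 0 and 0.940 CPM, where FM4 had no count and FM5 lay among the controls. Only 5 to 8 reads per male control stood behind these levels. *Hk3* rose by 1.68 ± 0.35 in males (edgeR, adjusted p = 0.00740) and changed by 1.41 ± 0.40 over both sexes without a call (edgeR, adjusted p = 0.0144), or by 1.60 with a call when FM4 was left out (edgeR, adjusted p = 4.0e-05), and DESeq2 called it with every mouse in (DESeq2, adjusted p = 0.00284). In males the call was lost when any mouse but MM2 was left out, at edgeR adjusted p-values of 0.0132 without MM3 to 0.0365 without MC4, and with all 20 mice in 1 fit (0.0869). Differences within litters A, B and C were 1.49, 1.52 and 1.01 in males and 1.01, -0.051 and 1.59 in females, where litter B held FM4. Macrophage markers moved with it, since 10 of 10 rose in the joint comparison (median log2 change 1.61) and their summed level was 131 to 164 CPM in male controls, 245 to 723 in male mutants, 171 to 214 in female controls and 189 to 991 in female mutants. Neutrophil markers had 0 of 3 called and *Mpo* had no count in any mouse. The part of these cells in the *Hk3* result was not tested.

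Among the upper steps, phosphofructokinase commits glucose to breakdown, and *Pfkm* encodes its muscle-type subunit. *Pfkm* measured 78.2, 77.0, 81.7, 79.0 and 85.4 CPM in male controls and 46.0, 64.9, 64.5, 60.3 and 60.0 CPM in male mutants, which did not overlap. It measured 91.7, 109, 94.1, 97.3 and 109 CPM in female controls and 69.2, 59.9, 51.7, 92.0 and 85.6 CPM in female mutants, of which only FM4 reached the control range. The gene fell by 0.48 ± 0.089 on the log2 scale over both sexes (edgeR, adjusted p = 0.000634), with -0.47 ± 0.089 in males (edgeR, adjusted p = 0.00461) and -0.48 ± 0.14 in females (edgeR, adjusted p = 0.0734). All 6 differences within litters were negative, -0.53, -0.34 and -0.51 in males and -0.40, -0.60 and -0.35 in females. In males the call was lost without any 1 of MC1 to MC5, MM4 or MM5, with edgeR adjusted p-values from 0.0106 without MM4 to 0.0202 without MC4, and with all 20 mice in 1 fit (0.0306), and in females it was gained without FM4 (edgeR, adjusted p = 0.00718). The other subunits were not called, with log2 changes of -0.0013 ± 0.071 for *Pfkl* and 0.045 ± 0.097 for *Pfkp*. The median log2 ratio of *Pfkp* to *Pfkm* counts was -0.53 (-0.67 to -0.50) in male controls, -0.089 (-0.53 to 0.90) in male mutants, 0.020 (-0.23 to 0.061) in female controls and 0.52 (-0.17 to 0.78) in female mutants, with the range over mice in parentheses. That range overlapped between mutants and controls in both sexes. Exons of *Pfkm* overlap those of *Senp1* on the other strand, and strand use in the counting is not given in the sources used here, so reads of the overlap could come from either gene. The same holds for *Hk3*, *Slc2a1*, *Gpi1*, *Pfkp*, *Aldoa*, *Tpi1*, *Pklr* and *Hif1a*, which make 9 such genes with *Pfkm*.

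On the lactate side, *Slc16a3* encodes MCT4, which exports lactate from glycolytic cells. *Slc16a3* stood at 0.805, 0.953, 0.601, 1.14 and 1.03 CPM in male controls and 4.81, 1.91, 3.60, 5.09 and 1.47 CPM in male mutants. The female values were 1.12, 1.15, 1.83, 1.49 and 0.988 CPM in controls and 4.44, 3.18, 5.77, 3.62 and 2.00 CPM in mutants. All mutants exceeded all controls of their sex. The rise was 1.60 ± 0.22 over both sexes (edgeR, adjusted p = 5.2e-05), 1.72 ± 0.35 in males (edgeR, adjusted p = 0.00646), and the change in females was 1.53 ± 0.30 (edgeR, adjusted p = 0.0195). Litters A, B and C gave 1.82, 1.80 and 0.46 in males and 1.87, 1.40 and 0.93 in females. The male call was lost without any 1 of MC1 to MC4, MM1, MM3 or MM4, at edgeR adjusted p-values from 0.0125 without MM3 to 0.0400 without MC4, and the female call was gained without FM4 (edgeR, adjusted p = 0.00537). Its share of the MCT1 and MCT4 level per kb was 1.61% in male controls and 4.22% in male mutants, and 2.41% and 6.90% in females. *Slc16a1* itself had a log2 change of 0.16 ± 0.14 over both sexes (edgeR, adjusted p = 0.459). Its mean was 55.1 CPM in male controls and 77.1 in male mutants, and 55.7 and 51.5 CPM in females. Within litters A, B and C it changed by 0.59, 0.22 and 0.35 in males and 0.40, -0.0075 and -1.07 in females. The lactate dehydrogenase subunits were not called, at 0.079 ± 0.073 for *Ldha* and -0.12 ± 0.085 for *Ldhb*. *Ldhd*, the mitochondrial enzyme that oxidises D-lactate, was lower without overlap in female mutants but not called in females, at -0.37 ± 0.11 (edgeR, adjusted p = 0.0821).

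In gluconeogenesis, fructose bisphosphatase reverses the phosphofructokinase step. *Fbp2* was at 16.4, 14.9, 13.6, 12.6 and 12.6 CPM in male controls and 29.6, 25.0, 24.8, 19.9 and 22.5 CPM in male mutants, without overlap. In females the controls had 28.1, 31.1, 22.5, 31.2 and 34.3 CPM and the mutants 39.4, 41.7, 28.2, 50.2 and 51.3 CPM, and FM3 alone fell among the controls. It rose by 0.67 ± 0.10 over both sexes (edgeR, adjusted p = 0.000123) and 0.84 ± 0.10 in males (edgeR, adjusted p = 0.000607), and in females the change was 0.52 ± 0.15 (edgeR, adjusted p = 0.0673). Every litter showed a rise, by 0.86, 0.82 and 0.83 in males and 0.48, 0.48 and 0.58 in females. *Fbp1*, which made most of this activity's RNA, went the other way without a call, at -0.34 ± 0.100 (edgeR, adjusted p = 0.0160). The share of *Fbp2* in the pair's level per kb was 1.42% and 3.05% in male controls and mutants and 3.16% and 5.85% in female controls and mutants. Of 7 muscle markers 2 could be tested and 0 were called, and the markers summed to 0.901 to 2.94 CPM over all mice, and their part in the *Fbp2* result was not tested.

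*Pck1* draws oxaloacetate into glucose synthesis and was among the most abundant genes of the list. Male controls held 2286, 2300.4, 1689, 1551 and 1612 CPM and male mutants 863, 1722, 949, 1467 and 1416 CPM. Female controls held 2455, 2357, 2967, 4009.7 and 4013 CPM and female mutants 1439.8, 1468, 1075, 2325 and 2811 CPM. Mutants and controls overlapped in both sexes, through MM2 among males and through FM5 among females. *Pck1* changed by -0.67 ± 0.16 over both sexes (edgeR, adjusted p = 0.00507), and edgeR called neither sex alone, at -0.50 ± 0.19 in males (edgeR, adjusted p = 0.0906) and -0.81 ± 0.21 in females (edgeR, adjusted p = 0.0543). The differences within litters were all negative, -0.76, -0.39 and -0.19 in males and -0.77, -0.98 and -0.51 in females. The joint call was lost without FC1, FM1, FC4 or FM2, at edgeR adjusted p-values of 0.0118, 0.0117, 0.0113 and 0.0117. FC1 and FM1 were the only females of litter A, so leaving out either broke the same pair. *Pck2* was not called, at 0.21 ± 0.091 (edgeR, adjusted p = 0.0937).

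*Pcx* feeds the same route by making oxaloacetate from pyruvate in the mitochondrion. It was at 589.7, 606, 574, 578 and 599 CPM in male controls and 395, 572, 392, 449 and 561 CPM in male mutants. Female levels were 387, 355, 351, 347 and 424 CPM in controls and 201, 204, 246, 346 and 338 CPM in mutants. Mutants were lower than controls without overlap in both sexes, by a narrow margin for MM2, MM5, FM4 and FM5. The log2 change was -0.40 ± 0.097 over both sexes (edgeR, adjusted p = 0.00506), -0.30 ± 0.10 in males (edgeR, adjusted p = 0.0519) and -0.48 ± 0.15 in females (edgeR, adjusted p = 0.0879). Within litters it was -0.31, -0.46 and -0.095 in males and -0.94, -0.44 and -0.32 in females. The joint call was lost without FC1, FM1, FC2 or MC4, at edgeR adjusted p-values of 0.0141, 0.0141, 0.0102 and 0.0159. FC1 and FM1 were the only females of litter A, so leaving out either broke the same pair, and MC4 was the only male control of litter B. Calls were gained in males without MM2 (edgeR, adjusted p = 0.00670) and in females without FM4 (edgeR, adjusted p = 0.00841).

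Where pyruvate meets the mitochondrial oxidation route, *Pdk1* encodes a kinase that switches pyruvate dehydrogenase off. Its level was 63.0, 50.3, 54.5, 55.7 and 50.1 CPM in male controls and 38.8, 43.1, 38.4, 39.8 and 41.5 CPM in male mutants. It was 77.8, 82.5, 74.4, 66.4 and 71.8 CPM in female controls and 58.6, 43.6, 45.1, 52.2 and 59.2 CPM in female mutants. No mutant reached a control of its sex. *Pdk1* fell, with a log2 change of -0.49 ± 0.066 over both sexes (edgeR, adjusted p = 4.3e-05) and -0.44 ± 0.080 in males (edgeR, adjusted p = 0.00392), and in females the change was -0.52 ± 0.10 (edgeR, adjusted p = 0.0204). The 6 differences within litters were all below 0, at -0.44, -0.51 and -0.27 in males and -0.41, -0.66 and -0.28 in females. The male call was lost without MC1, MC3, MM3 or MC4, where the highest edgeR adjusted p was 0.0328, without MC4. None of *Pdk2*, *Pdk3* and *Pdk4* was called, at -0.29 ± 0.098, -0.23 ± 0.080 and 0.12 ± 0.25, nor was *Hif1a*, the oxygen-regulated subunit of hypoxia-inducible factor, at 0.17 ± 0.061 (edgeR, adjusted p = 0.0450).

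**Figure D2:**
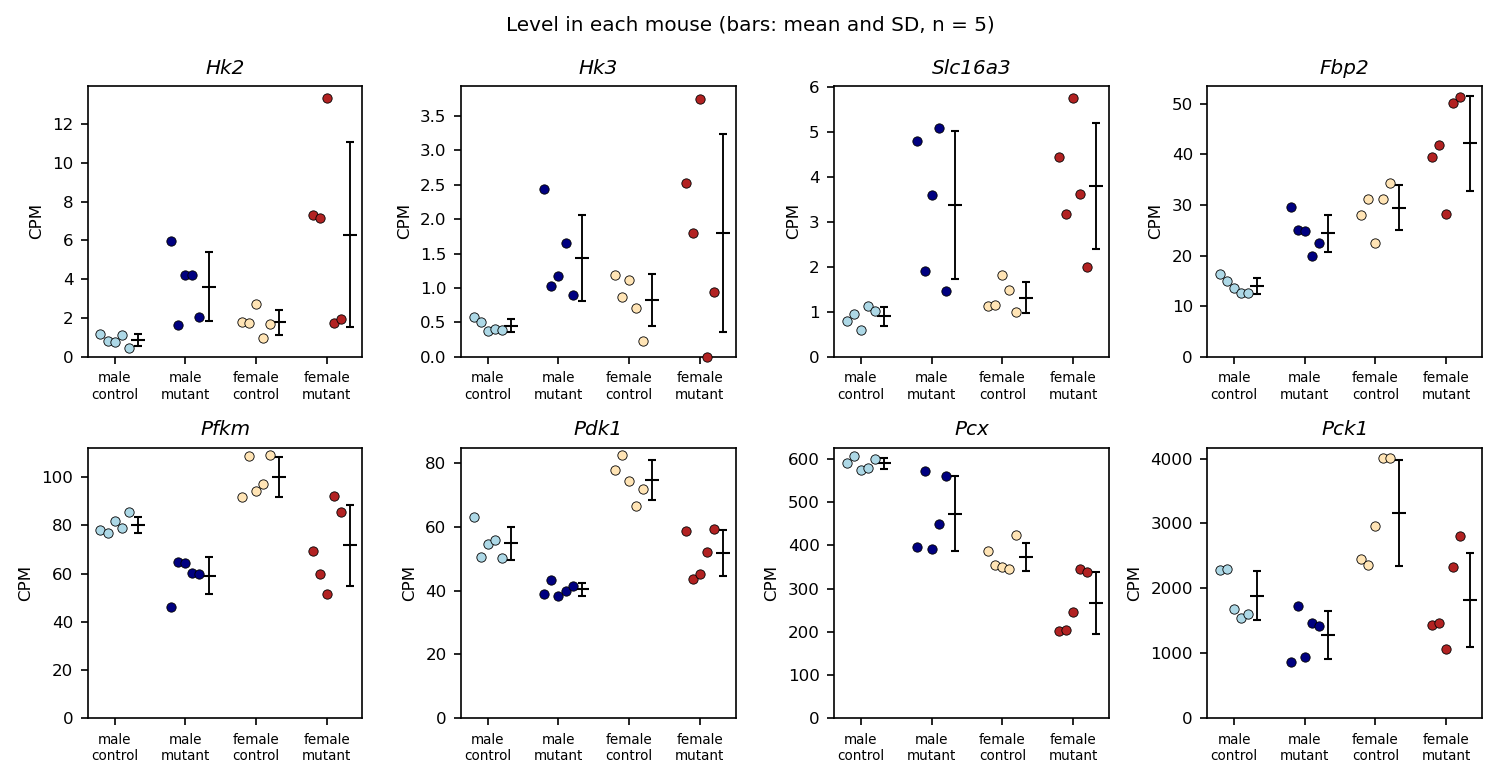
Each panel plots the CPM of 1 gene on the y axis for the 5 mice of each group, with bars for the mean and SD. Slc16a3 and Pdk1 separate mutants from controls in both sexes, with means of 0.905 and 3.38 CPM for Slc16a3 in male controls and mutants, whereas the groups of Pck1 overlap in both sexes.

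The counts can also be read as ratios between related genes within a library, which do not depend on how libraries were scaled. The median log2 ratio of *Hk2* to *Hk1* was -7.35 (-8.30 to -6.85) in male controls and -5.08 (-6.07 to -4.53) in male mutants, and -6.91 (-7.66 to -6.16) and -4.67 (-6.84 to -3.67) in females, with the range over mice in parentheses. For *Slc16a3* to *Slc16a1* it was -5.93 (-6.20 to -5.55) and -4.65 (-5.79 to -3.70) in males, and -5.52 (-5.93 to -4.74) and -3.65 (-4.34 to -3.42) in females. The first ratio was separate from the controls in males and the second in females. The ratio of *Pck1* to *Pck2* went from 6.24 (6.15 to 6.84) to 5.85 (4.86 to 6.37) in males and from 6.74 (6.39 to 7.14) to 5.45 (4.83 to 6.70) in females. *Ldha* to *Ldhb* stood at -1.0 (-1.11 to -0.99) and -0.82 (-1.05 to -0.73) in males and at -1.42 (-1.68 to -1.39) and -1.24 (-1.51 to -0.88) in females. Both of these overlapped between mutants and controls in each sex. 

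The tested genes without a joint call had log2 changes from -0.34 to 0.48, apart from *Hk3* above. They include the abundant enzymes of the lower pathway, with -0.15 ± 0.070 for *Gapdh*, -0.044 ± 0.074 for *Pgk1*, -0.12 ± 0.067 for *Pgam1*, -0.18 ± 0.070 for *Aldoa*, -0.17 ± 0.081 for *Pkm* and -0.10 ± 0.076 for *Tpi1*. *Slc2a1*, the glucose transporter GLUT1, was at -0.012 ± 0.085. *Gapdh*, *Pgk1*, *Pgam1*, *Pkm*, *Ldhb*, *Gpi1*, *Ldha*, *Aldoa* and *Tpi1* shared 7.51% to 82.5% of their 50-base words with other genes, so their counts depend on how shared reads were assigned. *Eno1*, which makes phosphoenolpyruvate, had 1 count in MM3 and none in the other mice, while the near-identical *Eno1b* had 24 to 56 counts, and 72.2% of the 50-base words of *Eno1* occur in other genes. The level of *Eno1* therefore cannot be read from these counts.

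Other genes of the same routes were read from a second list of 57, of which 53 were tested. In the joint comparison 0 rose, where 9.82% of all genes did, and 10 fell, where 5.57% did. Fructose and urate transport was represented by *Slc2a5* at -0.55 ± 0.11 (edgeR, adjusted p = 0.00101) and *Slc2a9* at -0.68 ± 0.13 (edgeR, adjusted p = 0.000631), and the insulin-responsive glucose transporter *Slc2a4* was at -0.81 ± 0.12 (edgeR, adjusted p = 8.8e-05). *G6pc*, which releases free glucose as the last step of gluconeogenesis, fell by 0.42 ± 0.11 on the log2 scale (edgeR, adjusted p = 0.00815), beside -0.25 ± 0.11 for the uncalled *Slc37a4*, which brings it its substrate. The dehydrogenase subunit *Pdha1*, the target of the Pdk kinases, was at -0.46 ± 0.074 (edgeR, adjusted p = 0.000200). The monocarboxylate carriers *Slc16a7* and *Slc16a4* fell, at -0.89 ± 0.13 and -0.54 ± 0.11, as did *Emb*, a partner protein of such carriers, at -0.29 ± 0.071. Among the monocarboxylate carriers of both lists, *Slc16a3* was the 1 called higher, while *Slc16a1* was not called and was higher on average in male mutants only. *Pgam2* and *Bpgm* were the remaining genes with a joint call, at -0.84 ± 0.13 and -0.29 ± 0.051. In males alone 2 of the 53 rose and 7 fell, where 8.35% of all 14706 genes were called in either direction. The 2 that rose were *Gpd2* at 0.49 ± 0.074 (edgeR, adjusted p = 0.00170) and *Hkdc1* at 0.82 ± 0.18 (edgeR, adjusted p = 0.00990). Neither had a joint call. In females alone 0 rose and 1 fell, where 0.612% of 15194 genes were called.

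Cell type markers moved with the mutant genotype as well, and their part in the results above was not tested. Injured tubule markers rose for 8 of 8 (median log2 change 2.32), with summed levels of 947 to 1178 CPM in male controls, 1970.3 to 9722 in male mutants, 2018 to 2464 in female controls and 2871 to 10482 in female mutants. Proliferation genes rose for 8 of 8 (2.18), and fibroblast markers for 6 of 8 (1.23). Markers of the thick ascending limb and distal convoluted tubule fell for 9 of 10 (-0.72), collecting duct markers for 5 of 10 (-0.34) and proximal tubule markers for 3 of 15 (-0.21). The summed proximal tubule level was 21054 to 22083 CPM in male controls and 14644 to 21096 in male mutants, and 15430.1 to 17291 and 9962 to 17840.1 in females, beside which the fall of *Pck1* and *Pcx* stands. Endothelial and adipose markers had 0 called of 8 and 5, and erythroid markers fell for 2 of 2 tested, with 4 globin genes at 0 counts in all mice.

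The sexes were compared next, within each genotype and with litter as a covariate. In controls 14 of the 36 genes were called, or 38.9%, against 17.1% of all 14760 genes. Of these, 4 were higher in males, where 8.48% of all genes were, and 10 were lower in males, where 8.60% of all genes were. *Ldhd*, *Pcx*, *Tpi1* and *Ldha* were higher in males, and the entry and commitment genes *Slc2a1*, *Hk1*, *Pfkl* and *Pfkp* were lower, together with *Aldoc*, *Pkm*, *Pklr*, *Pck2*, *Fbp2* and *Pdk1*. The median log2 difference of males from females was -0.20 over these genes and -0.013 over all genes. In mutants 4 were called, *Ldhd* and *Pdk3* higher and *Aldoc* and *Pkm* lower in males, or 11.1% against 5.17% of 15133 genes. The difference had the same sign in controls and mutants for 34 of 36 genes, or 94.4%, against 80.9% of all genes tested in both. The 36 genes were chosen with earlier results of these data known, so these shares are descriptions and were not tested.

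**Figure D3:**
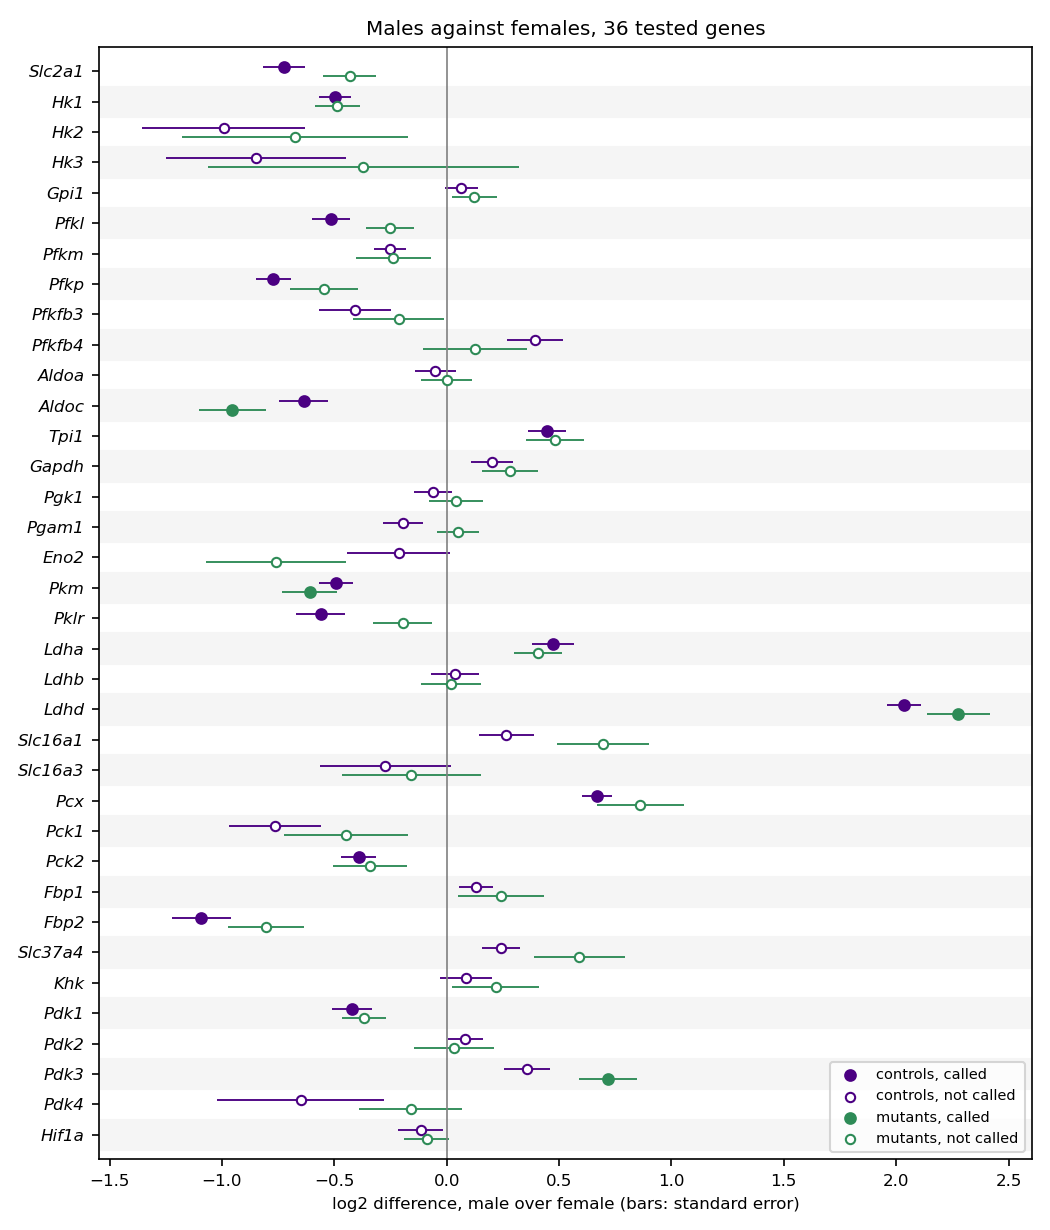
The log2 difference of male over female is on the x axis for the 36 tested genes, with controls in purple, mutants in green, bars for the standard error and filled points for calls at an adjusted p under 0.01. Ldhd lies alone on the right at 2.03 in controls and 2.28 in mutants, and the genes called lower in male controls reach from -0.39 for Pck2 to -1.09 for Fbp2.

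*Ldhd* had the largest sex difference of the list. It measured 1147, 1206, 1219, 1165 and 1376 CPM in male controls and 328, 275, 261, 295 and 330.3 CPM in female controls. In mutants it measured 1086, 1221, 968, 943 and 1369 CPM in male mutants and 215, 240.0, 178, 249.7 and 259.8 CPM in female mutants. No male overlapped a female in either genotype. Males exceeded females by 2.03 ± 0.075 (log2 difference ± SE) in controls (edgeR, adjusted p = 1.8e-09) and 2.28 ± 0.14 in mutants (edgeR, adjusted p = 3.7e-06). Litter by litter the difference was 1.86, 2.07 and 2.06 in controls and 2.42, 2.12 and 2.40 in mutants. Per kb, *Ldhd* stood at 538 ± 39.8 in male and 131 ± 13.6 in female controls, so that it was the fifth gene of the list in the males and lower down, at rank 12, in the females.

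The L-lactate subunit *Ldha* measured 652, 661, 762, 648 and 724 CPM in male controls and 469, 449, 423, 515 and 655 CPM in female controls. Its mutant levels were 766, 701, 740.4, 623 and 725 CPM in male mutants and 616, 528, 472, 543 and 507 CPM in female mutants. In controls FC5 reached into the male range, and in mutants the sexes did not overlap. The difference was 0.47 ± 0.092 in controls (edgeR, adjusted p = 0.00223) and 0.41 ± 0.11 in mutants (edgeR, adjusted p = 0.0293), and within litters 0.56, 0.49 and 0.14 in controls. The call in controls was lost without FC1 (edgeR, adjusted p = 0.0238) or MC4 (edgeR, adjusted p = 0.0364). *Ldhb* did not differ by a call, at 0.036 ± 0.11 in controls.

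At the entry of glucose, *Slc2a1* measured 41.8, 51.6, 51.8, 57.1 and 56.0 CPM in male controls and 90.6, 101, 82.5, 94.0 and 88.7 CPM in female controls. In mutants it measured 62.9, 49.9, 68.7, 66.4 and 49.7 CPM in male mutants and 87.7, 100.4, 67.5, 83.6 and 72.6 CPM in female mutants. The control sexes were apart and the mutant sexes overlapped. It was lower in male controls, by -0.72 ± 0.094 (edgeR, adjusted p = 0.000126), and in mutants the difference was -0.43 ± 0.12 (edgeR, adjusted p = 0.0352). Litters A, B and C gave -0.91, -0.69 and -0.66 in controls and -0.65, -0.29 and -0.55 in mutants.

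*Hk1*, which carried most of the RNA of *Hk1*, *Hk2* and *Hk3*, measured 139, 142, 128, 144 and 152 CPM in male controls and 219, 203, 197, 199 and 206 CPM in female controls. The mutants had 139, 112, 129, 145 and 115 CPM in male mutants and 187, 176, 169.9, 202 and 179.7 CPM in female mutants. Males were below females without overlap in both genotypes. The difference was -0.50 ± 0.071 in controls (edgeR, adjusted p = 0.000267) and -0.49 ± 0.10 in mutants, which missed the threshold (edgeR, adjusted p = 0.0105). Within litters it was -0.68, -0.47 and -0.44 in controls and -0.58, -0.41 and -0.64 in mutants.

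Among the phosphofructokinase subunits, *Pfkl*, the liver type, measured 69.2, 62.2, 73.9, 64.4 and 70.2 CPM in male controls and 90.6, 95.6, 88.9, 103 and 119.6 CPM in female controls. *Pfkp*, the platelet type, measured 49.0, 53.2, 57.9, 51.1 and 60.3 CPM in male controls and 95.6, 95.4, 97.0, 98.7 and 92.9 CPM in female controls. Neither overlapped between the control sexes. *Pfkl* was lower in male controls by -0.51 ± 0.084 (edgeR, adjusted p = 0.000686) and *Pfkp* by -0.77 ± 0.078 (edgeR, adjusted p = 1.6e-05). Within litters the controls differed by -0.41, -0.57 and -0.77 for *Pfkl* and -0.84, -0.92 and -0.62 for *Pfkp*. In mutants *Pfkl* stood at 78.9, 67.7, 80.3, 84.7 and 67.6 CPM in male mutants and 104, 88.1, 91.6, 76.0 and 96.3 CPM in female mutants. *Pfkp* stood at 86.2, 45.0, 60.6, 64.3 and 53.0 CPM in male mutants and 99.4, 103, 88.6, 82.0 and 79.4 CPM in female mutants. Both overlapped there, for *Pfkp* through MM1, whose level was above that of the other male mutants. The differences in mutants were -0.25 ± 0.11 for *Pfkl* (edgeR, adjusted p = 0.147) and -0.55 ± 0.15 for *Pfkp* (edgeR, adjusted p = 0.0377).

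Of the enzymes that split the sugar, *Aldoc*, the brain-type aldolase, measured 11.5, 14.6, 14.5, 12.7 and 15.5 CPM in male controls and 20.1, 21.7, 19.8, 18.3 and 28.8 CPM in female controls. It measured 12.2, 11.8, 12.7, 13.0 and 11.9 CPM in male mutants and 28.2, 25.6, 16.5, 20.1 and 29.3 CPM in female mutants. The male range lay below the female range in both genotypes. The difference was -0.64 ± 0.11 in controls (edgeR, adjusted p = 0.000862) and -0.95 ± 0.15 in mutants (edgeR, adjusted p = 0.00257), and within litters -0.57, -0.64 and -0.89 and -1.23, -0.66 and -1.30. The call in mutants was lost without FM1, FM5 or MM5, at edgeR adjusted p-values of 0.0303, 0.0211 and 0.0197. *Tpi1*, which interconverts the triose phosphates, measured 893, 845, 972, 798 and 960.5 CPM in male controls and 620.2, 652, 552, 643 and 815 CPM in female controls. It measured 810.5, 924, 792, 745 and 924 CPM in male mutants and 681, 571, 435, 648 and 626 CPM in female mutants. Only FC5 reached the male controls, and the mutants did not overlap. *Tpi1* was higher in male controls by 0.45 ± 0.084 (edgeR, adjusted p = 0.00173), within litters by 0.54, 0.38 and 0.24, and the call was lost without FC1 (0.0213) or MC4 (0.0185), or with all 20 mice in 1 fit (0.0157). In mutants its difference was 0.48 ± 0.13 (edgeR, adjusted p = 0.0322).

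Pyruvate kinase closes glycolysis, and *Pkm* made up 93.0% of its level per kb in male controls. *Pkm* measured 380.2, 361, 414, 391 and 420.1 CPM in male controls and 551, 584, 502, 558 and 659 CPM in female controls. It measured 394, 324, 328, 378 and 288 CPM in male mutants and 626, 482, 436, 599 and 457 CPM in female mutants. Males lay below females without overlap in both genotypes. The difference was -0.49 ± 0.075 in controls (edgeR, adjusted p = 0.000395) and -0.61 ± 0.12 in mutants (edgeR, adjusted p = 0.00927), and within litters -0.52, -0.48 and -0.65 and -0.81, -0.51 and -0.67. Leaving out any mutant but FM3 or FM4 ended the call in mutants, at edgeR adjusted p-values from 0.0130 without MM4 to 0.0767 without FM1. *Pklr*, the liver and red cell type, measured 35.7, 35.5, 36.2, 30.4 and 34.9 CPM in male controls and 45.8, 42.6, 40.7, 50.3 and 71.8 CPM in female controls. In mutants it measured 43.1, 34.7, 32.0, 29.5 and 33.0 CPM in male mutants and 36.2, 35.6, 33.8, 44.8 and 44.1 CPM in female mutants. Its control sexes did not overlap, and its mutant sexes did. The difference was -0.56 ± 0.11 in controls (edgeR, adjusted p = 0.00225 and 0.0162 without MC4) and -0.20 ± 0.13 in mutants (edgeR, adjusted p = 0.351), and within litters -0.36, -0.54 and -1.04 and 0.094, -0.30 and -0.42.

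On the way to glucose, *Pcx* was higher in males and *Fbp2* and *Pck2* were lower, from the levels of *Pcx* and *Fbp2* given above. *Pcx* exceeded the female level without overlap in both genotypes, by 0.67 ± 0.065 in controls (edgeR, adjusted p = 1.2e-05) and 0.86 ± 0.19 in mutants (edgeR, adjusted p = 0.0152), and by 0.61, 0.72 and 0.50 within litters in controls. *Fbp2* was lower in males by -1.09 ± 0.13 in controls (edgeR, adjusted p = 6.6e-05) and -0.80 ± 0.17 in mutants (edgeR, adjusted p = 0.0121), and by -0.91, -1.14 and -1.44 within litters in controls. The control sexes did not overlap for *Fbp2*, and those of the mutants did. *Pck2* measured 21.8, 20.1, 22.2, 21.8 and 21.6 CPM in male controls and 28.2, 28.0, 27.7, 28.5 and 32.7 CPM in female controls. It measured 29.7, 20.9, 30.7, 23.5 and 24.5 CPM in male mutants and 37.9, 33.5, 37.9, 22.3 and 33.0 CPM in female mutants. Male controls were below female controls, and the mutants overlapped. The difference in controls was -0.39 ± 0.078 (edgeR, adjusted p = 0.00263) and within litters -0.40, -0.36 and -0.60, and the call was lost without FC1, MC4, MC5 or FC5, at edgeR adjusted p-values of 0.0177, 0.0134, 0.0139 and 0.0139, and with all 20 mice in 1 fit (0.0242). MC5 and FC5 were the only controls of litter C, so leaving out either broke the same pair. *Pck1* was lower in male controls without overlap and without a call, at -0.76 ± 0.20 (edgeR, adjusted p = 0.0145).

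Of the kinases of pyruvate dehydrogenase, *Pdk1* was lower in males by -0.42 ± 0.090 in controls (edgeR, adjusted p = 0.00413) and -0.37 ± 0.098 in mutants (edgeR, adjusted p = 0.0313), without overlap in either. Its difference within litters was -0.48, -0.41 and -0.52 in controls, and the call was lost without FC1, MC4, MC5 or FC5, at edgeR adjusted p-values of 0.0320, 0.0244, 0.0152 and 0.0154. Here too, leaving out MC5 or FC5 broke the same pair of litter C. *Pdk3* lies on the X chromosome and went the other way. It measured 56.1, 52.7, 60.6, 56.1 and 72.8 CPM in male controls and 50.0, 40.7, 46.5, 53.7 and 48.1 CPM in female controls. It measured 51.0, 63.4, 52.1, 55.7 and 71.0 CPM in male mutants and 40.8, 33.6, 33.1, 39.2 and 31.3 CPM in female mutants. The control sexes overlapped and the mutant sexes did not. Males exceeded females by 0.72 ± 0.13 in mutants (edgeR, adjusted p = 0.00548) and 0.36 ± 0.10 in controls (edgeR, adjusted p = 0.0206), and by 0.48, 0.61 and 1.18 within litters in mutants. The call was lost without any 1 of MM2 to MM5, FM1, FM2 or FM5, at edgeR adjusted p-values from 0.0139 without MM2 to 0.0279 without MM5.

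**Figure D4:**
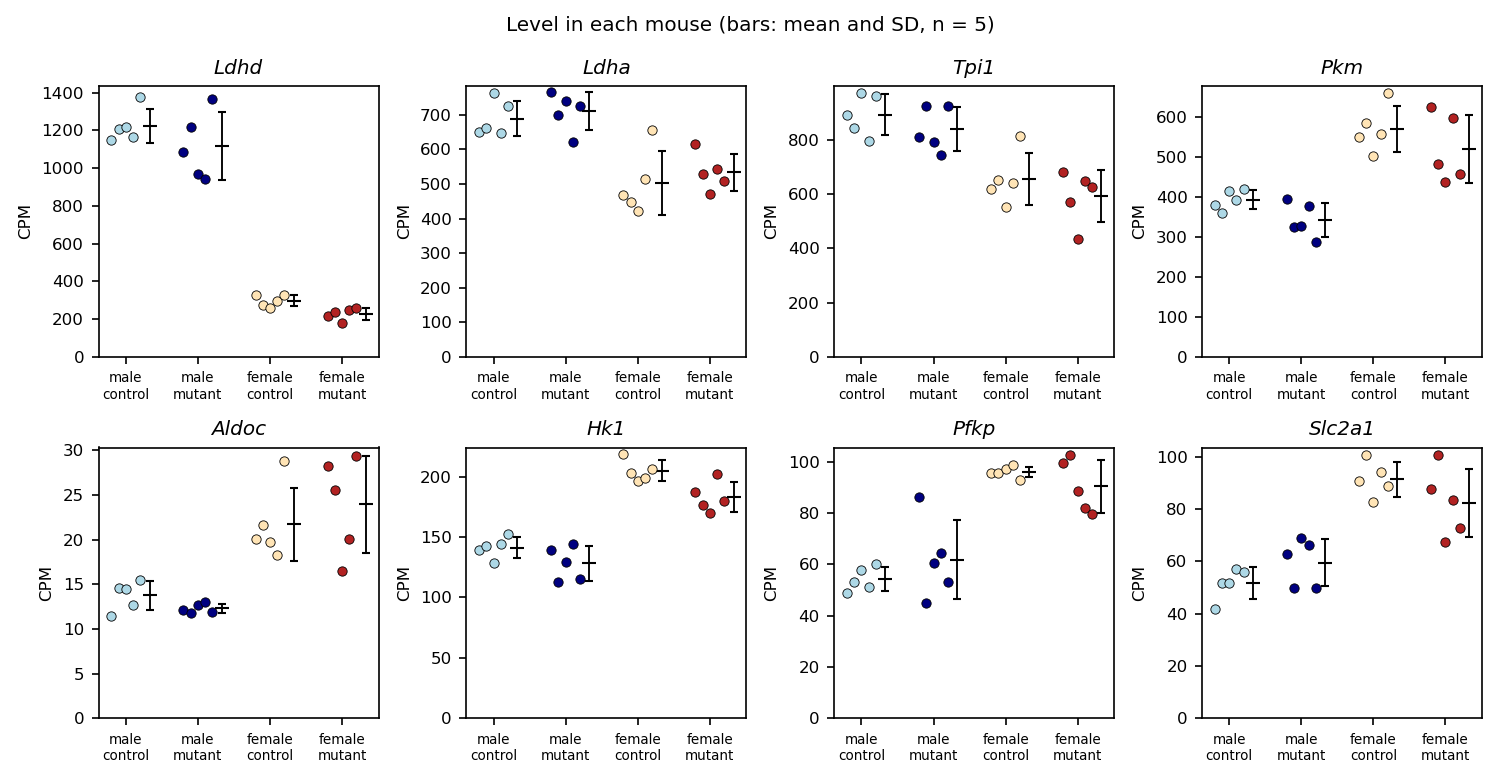
Each panel plots the CPM of 1 gene on the y axis for the 5 mice of each group, with bars for the mean and SD. Ldhd shows the widest gap, with means of 1223 CPM in male and 298 CPM in female controls, and Pkm, Aldoc and Hk1 lie lower in males than in females in both genotypes.

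The tested genes without a call in controls differed between the sexes by -0.99 (*Hk2*) to 0.39 (*Pfkfb4*) on the log2 scale. Of the 53 other tested genes of these routes, 5 were higher (8.48% of all genes) and 8 lower (8.60% of all genes) in male controls, among them *Slc16a4* at -0.90 ± 0.090 (edgeR, adjusted p = 1.5e-05), *Hkdc1*, a hexokinase relative, at -0.97 ± 0.17 (edgeR, adjusted p = 0.000958) and *Sord*, sorbitol dehydrogenase, at 0.58 ± 0.093 (edgeR, adjusted p = 0.000568). *Gpd2*, of the glycerol phosphate shuttle, was higher in males in both genotypes, at 0.42 ± 0.075 in controls (edgeR, adjusted p = 0.00132) and 0.91 ± 0.10 in mutants (edgeR, adjusted p = 0.000362). Cell type markers differed between the control sexes too, and their part in these differences was not tested. Endothelial markers were lower in males for 8 of 8 (median log2 difference -0.48), those of the thick ascending limb and distal convoluted tubule for 7 of 10 (-0.49), of the collecting duct for 4 of 10 (-0.38) and of macrophages for 4 of 10 (-0.46). Proximal tubule markers were higher in males for 5 of 15 (0.14).

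Whether the mutant change itself differed between the sexes was tested as a term of sex by genotype over all 20 mice. By edgeR 0 of the 36 genes were called, and 0% of 15355 genes, with 3 of the 36 at an unadjusted p under 0.05 against 4.23% of all genes, and DESeq2 called 0 of them and 18 genes in all. The 3 were *Pdk3*, *Pklr* and *Slc16a1*, whose mutant change was higher in males by 0.42 ± 0.13 (edgeR, adjusted p = 0.880), 0.40 ± 0.15 (edgeR, adjusted p = 1.00) and 0.57 ± 0.26 (edgeR, adjusted p = 1.00). For *Hk2* the difference was 0.30 ± 0.68 with an approximate 95% interval from -1.03 to 1.63, for *Slc16a3* 0.22 ± 0.45 from -0.67 to 1.10 and for *Fbp2* 0.34 ± 0.20 from -0.038 to 0.73. Calls made in males alone are thus not shown to be absent in females.

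Last, the level of each gene in the 10 mutants was related to KBW, the measure of kidney enlargement, with sex as a covariate, since male mutants had larger kidneys. At an adjusted p under 0.01 edgeR called 0 of the 36 genes and 0% of 14865 genes, with 12 of the 36 and 22.0% of all genes at an unadjusted p under 0.05, and DESeq2 called 5 of them, *Fbp1*, *Hk2*, *Pck1*, *Pdk2* and *Slc37a4*, and 4.04% of 14477 genes. The lowest adjusted p-values belonged to *Pck1*, whose slope was -1.49 ± 0.28 on the log2 scale per percentage point of KBW (edgeR, adjusted p = 0.0301), *Slc37a4*, the glucose-6-phosphate transporter of the endoplasmic reticulum, at -1.03 ± 0.23 (edgeR, adjusted p = 0.0440), *Hk2* at 2.91 ± 0.67 (edgeR, adjusted p = 0.0446) and *Pdk2*, the most abundant kinase of its family, at -0.91 ± 0.22 (edgeR, adjusted p = 0.0496). In each sex the mutant with the lowest KBW had the lowest *Hk2* level, and among males this mouse, MM2, also had the highest *Pck1* level. Among females it was FM4, the library that stood apart in genes detected. Its *Hk2* level of 1.73 CPM rested on 20 reads and lay close to the 1.94 CPM of FM5. Without the sex term the slope of *Hk2* was 0.93 (edgeR, adjusted p = 0.682), that of *Slc37a4* -0.0012 (0.999), that of *Pdk2* -0.46 (0.348) and that of *Pck1* -1.22 (0.0499). In male mutants alone the slopes were -1.18 for *Pck1* and 1.73 for *Hk2*, and in female mutants alone -1.92 and 4.97. Without MM1, the mutant with the highest KBW, the edgeR adjusted p was 0.205 for *Pck1*, *Slc37a4* and *Hk2* and 0.206 for *Pdk2*. With any 1 mutant left out, 0 of these slopes changed sign. None of these relations passed the threshold by edgeR.

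**Figure D5:**
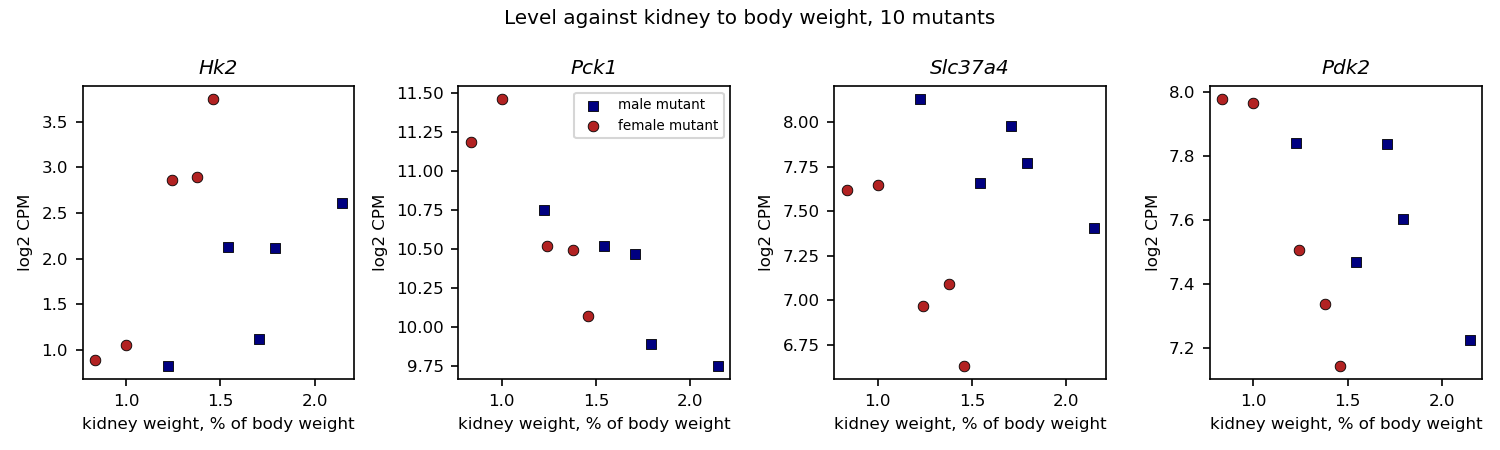
Each panel plots the log2 CPM of 1 gene on the y axis against kidney weight as a percentage of body weight on the x axis for the 5 male mutants (squares) and 5 female mutants (circles). Pck1 falls along the x axis in both sexes, and for Slc37a4 the males lie above the females at like kidney weights, with slopes of -1.49 and -1.03 per percentage point once sex is taken into account.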

How the data were processed

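RNA of 20 kidneys was sequenced, and the data are whole-number counts per gene symbol. The deposited counts carry no normalization. According to the submitters' processing notes and the study's methods, the authors used fastp 0.23.2, STAR 2.7.10b and mm10. The counting tool, annotation and strandedness are not given in the sources used here. Counts were tested in R 4.3.3 with edgeR 4.0.16 (TMM normalization, filterByExpr, glmQLFit and glmQLFTest, two-sided), with Benjamini-Hochberg adjustment over all genes and calls at an adjusted p under 0.01. Mutants were compared with controls (covariate: sex and litter, or litter within a sex) and males with females (litter), and mutants were fitted on KBW (sex). Standard errors are the log2 change divided by the root of F. Log2 CPM within litters used a prior count of 2, and ratios between genes added 0.5 counts. Lengths and 50-base words came from GENCODE M21 on GRCm38. Genes called in any comparison are given by mouse, and the others by range. The members and lists were chosen with earlier results of these data known. Alternatives were DESeq2 1.42.0 (size factors and Wald test), other filters, no litter term, all 20 mice in 1 fit, other KBW fits and each mouse left out. The procedure was run on simulated counts with planted changes in the tested term alone. Those counts held no effects of the covariates, so the run does not bear on single calls given here. KBW used the labelled kidney weight, taken to be of 1 kidney in mg, and body weight in g. Total counts had a median of 15813304.5, and the median SE of a log2 change over all genes was 0.10.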

Additional observations from a re-analysis of the deposited data

Results flagged for a closer look

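In 4 of 88 groups of 5 mice, over 22 genes, a single mouse lay far from the others of its group by Dixon's test, where chance flags about 1 in 20 groups. *Pfkm* was lowest in MM1, at 46.0 CPM against 60.0 to 64.9 in the other male mutants. *Pklr* was lowest in MC4, at 30.4 CPM against 34.9 to 36.2 in the other male controls. *Pck2* was lowest in MC2, at 20.1 CPM against 21.6 to 22.2, and highest in FC5, at 32.7 CPM against 27.7 to 28.5 in the other female controls. Each of the 4 mice was flagged once, and no explanation was tested.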

How the results depend on the processing

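The alternatives that could be fitted for a comparison were applied to the 7 counts of called genes and to 46 results of single genes. Of 813 alternative values of single genes, 723 stayed on their side of the threshold, 74 lost the call, 16 gained it and 0 changed sign. The number called for genotype over both sexes was 7, and 11 by DESeq2. In males it was 6, and 3 with at least 10 counts in every mouse, a filter that removed *Hk2*, *Hk3* and *Slc16a3*, and 3 with all 20 mice in 1 fit, where *Hk2*, *Hk3* and *Pfkm* lost the call. In females it was 0, 4 by DESeq2 and 3 with all 20 mice. Between the sexes it was 4 in mutants, 11 by DESeq2 and 13 with all 20 mice in 1 fit, and for KBW it was 0 and 5 by DESeq2. The cause was not tested. Where DESeq2 called more in females and for KBW, its share of all genes, given above, was higher too. The counts under other settings, here and below, stand without the share of all genes called under that setting. They are not read as a result about these genes. With each mouse left out the counts ran from 5 to 11 for genotype over both sexes, 1 to 7 in males, 0 to 5 in females, 9 to 14 between control sexes and 1 to 7 between mutant sexes. Without FM4 they were 11 over both sexes (adding *Fbp1*, *Hk3*, *Pck2* and *Pdk2*) and 5 in females (*Fbp1*, *Pcx*, *Pfkm*, *Slc16a3* and *Slc37a4*), and without MC4 9 between control sexes. In males they were 1 without MC3 or MC4, 2 without MC1 or MC2 and 3 without MM3. Between mutant sexes, 1 gene was called without FM1, FM5 or MM5, 2 without MM2, MM3, FM2 or MM4, and 7 without FM3 (adding *Fbp2*, *Hk1* and *Slc2a1*) or FM4 (adding *Hk1*, *Pcx* and *Tpi1*). The mutant minus control difference of the log2 ratio of *Pfkp* to *Pfkl* was 0.018 and ran from -0.038 to 0.052 with a mouse left out, and that of *Pkm* to *Pklr* was 0.0039 and ran from -0.043 to 0.049, so neither has a set sign. No paired analysis was possible because the labels give no replicate numbers that tie single mice across groups, and mice were matched by the labelled litter instead, as a covariate and in the differences within litters. Levels under about 1 CPM, as for *Hk2*, *Hk3* and *Slc16a3* in male controls, rest on 5 to 16 reads. Litters A and C held 1 mouse of each female group. Litter B held 1 male control, and litter C held 1 mouse of each male group. With litter as a covariate, leaving out such a mouse left its litter mates without a partner in the comparison. FC1 and FM1 in the joint fit, MC5 and FC5 in controls, and FM5 and MM5 in mutants are therefore not separate checks.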
